A study of Mus musculus with 23 samples.

Results

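The genes examined here were Fabp1, Fabp2, Fabp4, Fabp5 and Fabp7, which encode 5 fatty acid binding proteins. They were taken by symbol from a table of 49585 genes counted in mouse liver, and all 5 passed the minimum mean of 10 counts that left 14466 genes for testing. The rule names them by symbol and uses no measured value, but the members were chosen with earlier results of these data known. A count of members called is therefore no independent evidence.

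Fatty acid binding proteins are small cytosolic carriers of the intracellular lipid binding protein family. Each folds into a barrel that holds a fatty acid or a related lipid and carries it between membranes, oxidising organelles and, for some members, nuclear receptors. Fabp1 is the abundant form of hepatocytes, Fabp2 is known from the intestine, Fabp4 from adipocytes, capillary endothelium and macrophages, Fabp5 from skin and many other tissues, and Fabp7 from brain and from some macrophages. Fabp1, Fabp2 and Fabp4 are known targets of peroxisome proliferator-activated receptors (PPARs), lipid-sensing nuclear receptors that drive fatty acid oxidation in liver and fat storage in adipose tissue.

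Polyadenylated RNA was sequenced from frozen livers of 23 C57Bl/6J pups at weaning, 1 library per pup. The question of the design was whether exposure to maternal metabolic syndrome (MetS) acts before birth, during nursing, or both. Dams of the parent generation were put on chow holding 10% (control) or 45% fat at an age of 3 weeks, kept on it for a period of either 7 or 17 weeks, and mated to control-fed males. Litters were set to 5 pups at birth and all pups were moved to foster dams, so every group, Ct-Ct included, was fostered. Ct-Ct pups (n = 6) were never exposed, MetS-Ct pups (n = 6) were exposed before birth, Ct-MetS pups (n = 6) were exposed through the foster dam after birth, and MetS-MetS pups (n = 5) were exposed at both times. Pups were killed on postnatal day 21, except that MetS-Ct_97 is labelled day 22. The sources used here do not state the sex, the litter or the dam's weeks on diet for each pup. The p-values below measure the spread between pups, which would be too small where pups shared a litter. RNA came from whole liver, so fewer cells of a type and less RNA per cell cannot be told apart.

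Library totals ranged from 16876460 to 34527932 counts, and levels are given as CPM, counts scaled with TMM factors to a library of 1000000. MetS-MetS_110 stood apart. It had the smallest total, the lowest median correlation with the other libraries (0.951), and a sum of 1300 CPM over 19 striated muscle genes, against 4.25 to 14.6 CPM in each of the other 22. It also held 37 of the 68 counts of Adipoq in the whole series and 34 of the 59 of Plin1, both adipocyte genes. Its weight in the main results for MetS-MetS is given beside them. The hepatocyte list, with Alb, Apoa1 and Ttr among its genes, summed to 140344 to 189798 CPM per library. None of its 11 tested genes was called with postnatal exposure by edgeR. An unadjusted p under 0.05 was found for 4 of them, and for 21.2% of all genes tested. Erythroid genes did move with postnatal exposure (5 of 12 higher, none lower, where 2.27% of all genes were called higher).

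Promoters are shown for every member with a promoter sequence in the source used. PPARs and other nuclear receptors bind direct repeats of a hexamer. The RefSeq table of promoter sequences (GRCm38.p6) holds 3 of the 5 members, Fabp1, Fabp2 and Fabp7. Each line gives the 250 bases before the gene's start, 5′ to 3′ on the + strand, with motif matches in capitals. The intervals are chr6:71199629-71199878 for Fabp1, chr3:122894822-122895071 for Fabp2 and chr10:57784673-57784922 for Fabp7.
Fabp1: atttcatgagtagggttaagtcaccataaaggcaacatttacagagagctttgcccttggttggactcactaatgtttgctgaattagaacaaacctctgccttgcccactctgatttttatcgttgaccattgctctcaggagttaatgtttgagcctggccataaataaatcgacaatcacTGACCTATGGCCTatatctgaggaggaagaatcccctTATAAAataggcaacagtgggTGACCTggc
Fabp2: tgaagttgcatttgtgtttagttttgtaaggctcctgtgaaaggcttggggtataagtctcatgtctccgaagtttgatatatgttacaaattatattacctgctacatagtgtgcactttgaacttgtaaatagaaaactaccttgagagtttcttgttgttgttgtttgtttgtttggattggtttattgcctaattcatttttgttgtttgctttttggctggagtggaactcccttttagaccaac
Fabp7: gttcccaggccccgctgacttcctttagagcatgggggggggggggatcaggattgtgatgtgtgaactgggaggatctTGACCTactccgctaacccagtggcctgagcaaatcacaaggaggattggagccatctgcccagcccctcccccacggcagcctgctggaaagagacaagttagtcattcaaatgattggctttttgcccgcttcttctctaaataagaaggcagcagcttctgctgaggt
Motifs were searched on both strands, from 250 bases before to 50 after each start. AGGNCANAGGTCA is a direct repeat with 1 base between, the type bound by PPAR with its partner RXR, and its second hexamer AGGTCA was also searched alone. TATAAA is a TATA box. The Fabp1 promoter holds the direct repeat on the reverse strand, starting 67 bases before the gene's start, and 31 of 32851 promoters of this length (0.0944%) hold it. The letters searched leave 1 base of the first hexamer open, and at that base Fabp1 differs from AGGTCA. The match and its share depend on this choice of letters, so they are no independent evidence of a site. Fabp1 also holds AGGTCA at 67 bases, inside the repeat, and at 9 bases before the start, and TATAAA at 30 bases. AGGTCA is in 16.3% of all promoters and TATAAA in 13.6%. Fabp7 holds AGGTCA 171 bases before its start and Fabp2 has none of these letters in the window. A match describes the sequence and is no measure of binding.

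Levels between members were compared per kilobase of exon (GENCODE M21 exon lengths), because the genes differ in length. Fabp1 averaged 4034 CPM per kb over the 23 libraries and was the 47th most abundant gene of the table in CPM. Fabp2 followed with 57.7 CPM per kb, Fabp5 with 45.4, Fabp4 with 6.86 and Fabp7 with 2.87. The order of Fabp2 and Fabp5 rests on their exon lengths of 965 and 3567 bases, and in CPM it turns, with 162 for Fabp5 and 55.7 for Fabp2. The lowest library of Fabp1 (1720 CPM per kb) lay far above the highest of any other member (110 in Fabp2). Fabp2 and Fabp5 overlapped in range (25.2 to 110 and 10.5 to 94.6 CPM per kb), as did Fabp4 and Fabp7 (3.10 to 12.6 and 1.30 to 8.48). Fabp1 made up 89.8% of the counts of the 5 members. Every member had counts in all 23 libraries, and the smallest count was 42, for Fabp7 in MetS-Ct_120.

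**Figure D1:**
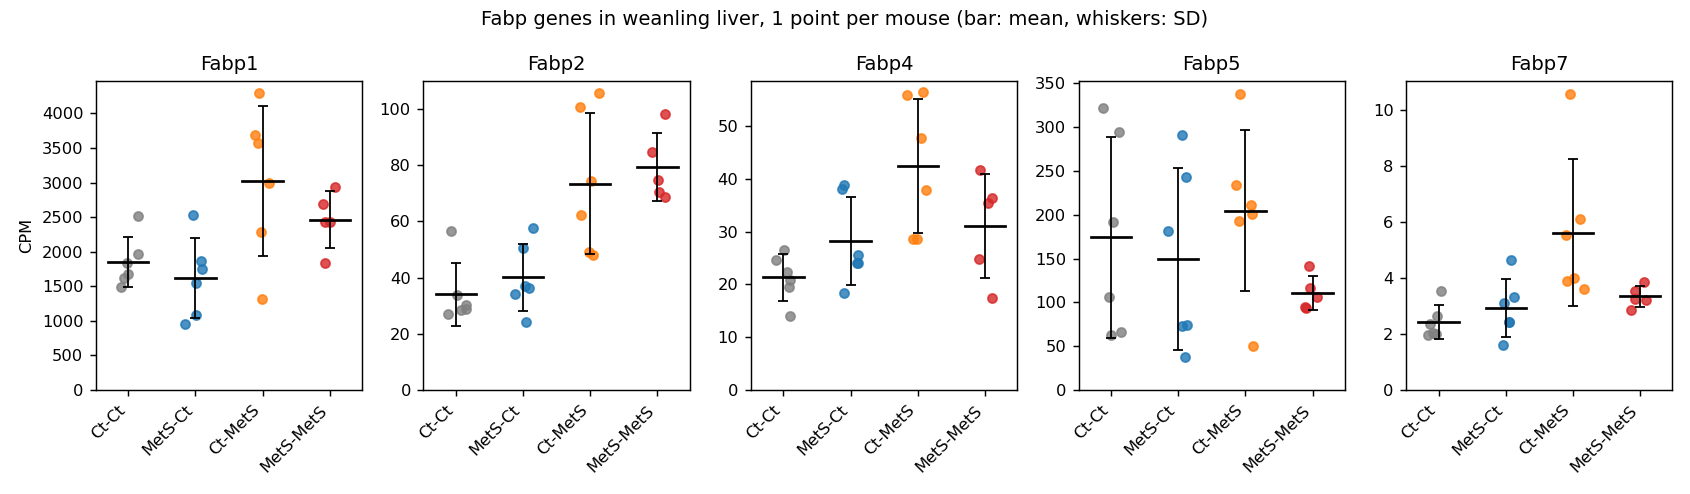
Level of each Fabp gene in CPM (linear axis from 0, a separate scale per gene) in each of the 23 pups, by group. Points are pups, bars are group means and whiskers are SDs. The 5 MetS-MetS pups sit between 68.8 and 98.1 CPM for Fabp2, above all 6 Ct-Ct pups, while Fabp5 spreads from 37.4 to 337 CPM with no separation of the groups.

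With exposure during nursing, averaged over both prenatal states, 3 of the 5 members rose by edgeR's quasi-likelihood test with Benjamini-Hochberg adjustment over all genes: Fabp2, Fabp7 and Fabp1. Of all 14466 genes tested, 4.22% were called in this comparison, and 2.27% were called higher. Without MetS-MetS_110 these shares were 3.06% and 1.74%. Leaving out 1 pup gave 2.41% (without MetS-MetS_154) to 6.39% (without Ct-MetS_50), and the share moved by over 1.5 times without those or one of Ct-Ct_4, Ct-Ct_129, Ct-MetS_24, Ct-MetS_145 and Ct-MetS_169. Fabp4 missed the threshold narrowly and Fabp5 did not move in either direction beyond its spread. The prenatal contrast called none of the members. Each gene is described below with its values, starting with the hepatocyte form.

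Fabp1, the liver form, carries fatty acids within hepatocytes and delivers them for oxidation. Its level in Ct-Ct was lowest at 1488 CPM, with a median of 1758 and a highest value of 2516 (mean 1850 ± 366, SD, n = 6). MetS-Ct ran from 951 through a median of 1649 to 2537 CPM (1622 ± 576, SD, n = 6). Ct-MetS ran from 1316 through 3282 to 4301 CPM (3025 ± 1082, SD, n = 6). In MetS-Ct, 2 of 6 pups (MetS-Ct_70 at 951 and MetS-Ct_97 at 1083 CPM) lay below every Ct-Ct pup and 1 lay above all of them. In Ct-MetS, 4 of 6 pups lay above every Ct-Ct pup and 1, Ct-MetS_50 at 1316 CPM, lay below all of them. The MetS-MetS values were 2696 CPM in MetS-MetS_109, 2424 in MetS-MetS_110, 2930 in MetS-MetS_154, 1843 in MetS-MetS_157 and 2435 in MetS-MetS_39 (2466 ± 406, SD, n = 5). Of the 11 pups nursed by MetS dams, 10 were above the mean of the 12 others, and the ranges overlapped. Postnatal exposure raised Fabp1 1.58-fold (log2 fold change 0.66 ± 0.17, SE, edgeR adjusted p = 0.0336). This call stood close to the threshold. It was kept without 12 of the 23 pups in turn and lost without MetS-MetS_109, MetS-MetS_154, Ct-MetS_24, Ct-MetS_63, Ct-MetS_145, Ct-MetS_169, Ct-Ct_4, Ct-Ct_129, Ct-Ct_130, MetS-Ct_70 or MetS-Ct_97, with adjusted p from 0.051 to 0.0651. Without MetS-MetS_110 it was 0.66 with an adjusted p of 0.0494. No single pair of groups passed: Ct-MetS against Ct-Ct gave 0.71 ± 0.24 (edgeR adjusted p = 0.158), which passed only without Ct-MetS_50 (0.86, adjusted p = 0.0441), and MetS-MetS against Ct-Ct gave 0.41 ± 0.25 (adjusted p = 0.317; 0.42 and 0.394 without MetS-MetS_110).

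Marker lists were read beside Fabp1. Over the 23 pups it followed the exocrine pancreas sum most closely of the cell type lists, with a Pearson r of 0.75, and 0.80 after group means were removed. That sum was nearly all Cela1, an elastase gene with 8036 counts in the series, while Prss1, Prss2, Cela2a, Amy2a2 and Pnlip had 0 counts in every library. It was 8.26 to 18.7 CPM for Ct-Ct, 3.44 to 23.4 for MetS-Ct, 5.01 to 22.3 for Ct-MetS and 9.57 to 23.8 for MetS-MetS, and Cela1 was not called with postnatal exposure (0.46, edgeR adjusted p = 0.404). Fabp1 ran against the adipocyte sum (-0.58, and -0.73 after group means were removed). Most of that sum came from Pck1, a gluconeogenic enzyme gene also expressed in hepatocytes, and from Lpl, which encodes lipoprotein lipase. The sum ranged from 1250 to 5285 CPM for Ct-MetS, 2575 to 4221 for MetS-MetS, 971 to 4335 for Ct-Ct and 2706 to 3978 for MetS-Ct.

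Fabp2, the intestinal form, binds long-chain fatty acids taken up by enterocytes and is also transcribed in liver. Ct-Ct ranged from 26.9 to 56.4 CPM with a median of 29.5 (34.1 ± 11.2, SD, n = 6), and all but Ct-Ct_33 were at or below 33.7 CPM. MetS-Ct ranged from 24.3 to 57.7 CPM with a median of 36.8 (40.1 ± 11.99, SD, n = 6). Ct-MetS ranged from 48.2 to 105.8 CPM with a median of 68.2 (73.4 ± 25.1, SD, n = 6). Levels were 68.8 CPM in MetS-MetS_109, 70.4 in MetS-MetS_110, 84.6 in MetS-MetS_154, 98.1 in MetS-MetS_157 and 74.8 in MetS-MetS_39, a mean of 79.3 ± 12.2 (SD, n = 5). All 5 MetS-MetS pups lay above every pup nursed by a control dam, as did 4 of the 6 Ct-MetS pups. The other two, Ct-MetS_65 and Ct-MetS_50, lay below the highest of the unexposed pups. Postnatal exposure raised Fabp2 2.07-fold (1.05 ± 0.16 on the log2 scale, SE, edgeR adjusted p = 0.00147), which ranked 19th by p of all genes tested. That call was kept without each of the 23 pups in turn, with an adjusted p of at most 0.00388. Against Ct-Ct, Fabp2 was 2.15-fold higher in Ct-MetS (1.11 ± 0.23, edgeR adjusted p = 0.0231) and 2.33-fold higher in MetS-MetS (1.22 ± 0.24, adjusted p = 0.0105; 1.26 and 0.0163 without MetS-MetS_110). The MetS-MetS call was kept without each pup, whereas the Ct-MetS call did not pass when Ct-MetS_169 or one of Ct-Ct_139, Ct-Ct_129, Ct-Ct_10 and Ct-Ct_4 was left out (adjusted p from 0.055 to 0.0622). Without Ct-Ct_33, the high control, the Ct-MetS difference was 1.31 and the MetS-MetS difference 1.42.

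The gut marker list was read beside Fabp2. None of its 5 tested genes was called with postnatal exposure by edgeR, though 4 of them had an unadjusted p under 0.05 (21.2% of all genes did). They were Apoa4 (1.01, adjusted p = 0.0868), Anpep (0.28, 0.0964), Lgals4 (0.68, 0.140) and Slc5a1 (-0.40, 0.185), and the median of the 5 was 0.28. Leaving out 1 pup gave 0 to 2 higher, with 2 without Ct-MetS_50. Its summed level was 243 to 328 CPM in Ct-Ct pups and 215 to 579 CPM in MetS-Ct pups. Ct-MetS pups had 260 to 1198 CPM and MetS-MetS pups 296 to 725 CPM. Apoa4, an apolipoprotein made by both gut and liver, was its most abundant gene, averaging 442 CPM for Ct-MetS, 266 for MetS-MetS, 202 for MetS-Ct and 144 for Ct-Ct. The Pearson r of Fabp2 with the gut sum over the 23 pups was 0.58, and 0.30 after group means were removed. With the sum of the macrophage list described below it was 0.64, and 0.16 after group means were removed. The part of gut or macrophage RNA in the Fabp2 difference was not tested. Other genes of the gut list were at or near 0: over all 23 libraries Alpi had 0 counts, Cdx2 had 2, and Cdx1 and Sis had 3 each. A noncoding gene, 4933405D12Rik, overlaps Fabp2 on the opposite strand. It had 10 to 168 counts per library, against 658 to 3084 for Fabp2, and the sources used here do not say whether reads were counted by strand.

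Fabp4, the adipocyte form, is also made by capillary endothelium and macrophages. Ct-Ct ranged from 13.9 to 26.6 CPM with a median of 21.6 (21.3 ± 4.42, SD, n = 6), and MetS-Ct from 18.4 to 38.8 with a median of 24.8 (28.2 ± 8.34, SD, n = 6). Ct-MetS ranged from 28.6 to 56.4 CPM with a median of 42.8 (42.5 ± 12.7, SD, n = 6), and every one of its 6 pups lay above all 6 Ct-Ct pups. MetS-MetS_109 and MetS-MetS_154 had 17.4 and 24.8 CPM, and MetS-MetS_157, MetS-MetS_39 and MetS-MetS_110 had 35.5, 36.4 and 41.7 CPM (31.1 ± 9.86, SD, n = 5), so that this group overlapped all others. Fabp4 was 1.99-fold higher in Ct-MetS than in Ct-Ct (0.99 ± 0.23 on the log2 scale, edgeR adjusted p = 0.0376). That call did not pass when one of Ct-MetS_50, Ct-MetS_63, Ct-MetS_65, Ct-MetS_145, Ct-MetS_169, Ct-Ct_139, Ct-Ct_129, Ct-Ct_10 and Ct-Ct_4 was left out, with adjusted p from 0.0535 to 0.0915 and a log2 fold change of at least 0.90. The mean over both prenatal states was 0.57 ± 0.17 (adjusted p = 0.0531), and 0.51 (adjusted p = 0.103) without MetS-MetS_110. It passed without MetS-MetS_109, Ct-MetS_24, Ct-MetS_169, MetS-Ct_53 or MetS-Ct_70 (adjusted p from 0.0267 to 0.0478), and with DESeq2 (0.0143). MetS-MetS against Ct-Ct gave 0.54 ± 0.24 (adjusted p = 0.167), and 0.42 (0.359) without MetS-MetS_110, which had the highest Fabp4 level of its group.

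Adipocyte, endothelial and stellate cell lists were read beside Fabp4. Lep had 0 counts in every library. Adipoq averaged 0.0704 CPM for Ct-Ct, 0.0189 for MetS-Ct, 0.0352 for Ct-MetS and 0.545 for MetS-MetS (0.109 without MetS-MetS_110). None of the 5 tested adipocyte genes was called with postnatal exposure (2 at an unadjusted p under 0.05, against 21.2% of all genes). Endothelial genes were abundant, with sums of 610 to 739 CPM in Ct-Ct pups and 645 to 952 CPM in MetS-Ct pups, against 611 to 943 CPM for Ct-MetS and 638 to 887 CPM for MetS-MetS. Of 18 endothelial genes tested, 1, Emcn, rose with postnatal exposure (0.32, adjusted p = 0.0469), a call kept without only 5 of the 23 pups in turn and lost without MetS-MetS_110 (0.0870). The median of the list was 0.12, and 2.27% of all genes were called higher in this comparison. Of 11 stellate cell genes 1, Rgs5, rose (0.48, adjusted p = 0.0283), and leaving out 1 pup gave 0 to 1. The stellate sums were 560 to 805 CPM for Ct-Ct and 629 to 775 for MetS-Ct, against 635 to 888 for Ct-MetS and 652 to 848 for MetS-MetS. Over the 23 pups, the Pearson r of Fabp4 was 0.57 with the stellate sum, 0.51 with the endothelial sum and 0.32 with the adipocyte sum described above. After group means were removed these were 0.42, 0.44 and 0.50. The part of these cells' RNA in the Fabp4 difference was not tested.

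Fabp7, the brain form, is known from radial glia and, in liver, from Kupffer cells, the resident macrophages. It was the scarcest member, with 42 to 325 counts per library. Ct-Ct ranged from 1.96 to 3.53 CPM with a median of 2.20 (2.42 ± 0.604, SD, n = 6), and MetS-Ct from 1.62 to 4.66 with a median of 2.78 (2.93 ± 1.04, SD, n = 6). Ct-MetS ranged from 3.59 to 10.6 CPM with a median of 4.78 (5.63 ± 2.63, SD, n = 6). All 6 Ct-MetS pups lay above all 6 Ct-Ct pups, and Ct-MetS_169 lay far above its own group. Values lay close together in MetS-MetS_109 (3.56 CPM), MetS-MetS_110 (2.85), MetS-MetS_154 (3.25), MetS-MetS_157 (3.23) and MetS-MetS_39 (3.85), with a mean of 3.35 ± 0.379 (SD, n = 5). They lay within or just above the Ct-Ct range. Fabp7 was 2.32-fold higher in Ct-MetS than in Ct-Ct (1.22 ± 0.25 on the log2 scale, edgeR adjusted p = 0.0230), and the call was lost without Ct-MetS_169 (0.94, adjusted p = 0.0622), Ct-Ct_10 (0.057) or Ct-Ct_129 (0.059). The postnatal mean was 0.70 ± 0.18 (1.63-fold, adjusted p = 0.0306), with all 11 pups of MetS dams above the mean of the 12 others. It was lost without Ct-MetS_169 (0.56, adjusted p = 0.0543), Ct-MetS_145, MetS-MetS_154, Ct-Ct_129 or MetS-Ct_97, and kept without MetS-MetS_110 (0.73, adjusted p = 0.0391). In MetS-MetS against Ct-Ct it was 0.47 ± 0.27 (adjusted p = 0.289; 0.52 and 0.310 without MetS-MetS_110).

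Kupffer cell and macrophage genes were read beside Fabp7. Of 19 listed genes, all tested, 8 were higher with postnatal exposure and none lower, where 2.27% of all genes were called higher. Leaving out 1 pup gave 7 to 10 higher. The median difference of the list on the log2 scale was 0.30, where that of all genes tested was -0.0075. Cd68, a lysosomal protein of macrophages, rose by 0.57 (edgeR adjusted p = 0.00147) and Adgre1, which encodes the surface marker F4/80, by 0.51 (adjusted p = 0.00468). The list summed to 748 to 1117 CPM in Ct-Ct pups and 1035 to 1141 CPM in MetS-Ct pups, against 1071 to 1414 CPM for Ct-MetS and 1024 to 1423 CPM for MetS-MetS. The mean sums were 1225 CPM for Ct-MetS and 1240 CPM for MetS-MetS, and the mean Fabp7 levels of these groups were 5.63 and 3.35 CPM. The Fabp7 difference between them missed the threshold (-0.75 ± 0.26, edgeR adjusted p = 0.215). It was -0.48 (adjusted p = 0.422) without Ct-MetS_169, the pup at 10.6 CPM, and -0.70 (0.387) without MetS-MetS_110. Over the 23 pups, Fabp7 and the macrophage sum had a Pearson r of 0.60, and 0.34 after group means were removed. Glial genes were scarce. Olig2 had 0 counts and Sox10 had 8 over all libraries, and none of the 4 tested glial genes was called with postnatal exposure (none at an unadjusted p under 0.05). The part of macrophage RNA in the Fabp7 difference was not tested.

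Fabp5, the epidermal form, is widely expressed and binds fatty acids and retinoic acid. Its level varied widely between pups of 3 of the 4 groups. Ct-Ct ranged from 62.9 to 322 CPM with a median of 149.1 (174 ± 114, SD, n = 6), MetS-Ct from 37.4 to 291 with a median of 128 (150 ± 104, SD, n = 6) and Ct-MetS from 50.7 to 337 with a median of 206 (205 ± 92.0, SD, n = 6). MetS-MetS_109 had 95.1 CPM, MetS-MetS_110 had 116, MetS-MetS_154 had 142, MetS-MetS_157 had 107 and MetS-MetS_39 had 94.0, a mean of 111 ± 19.5 (SD, n = 5). All 5 thus lay inside the ranges of the other groups. The coefficient of variation was 65.6% for Ct-Ct, 69.3% for MetS-Ct, 45.0% for Ct-MetS and 17.7% for MetS-MetS. Among the 5 members these were the highest values for Ct-Ct and MetS-Ct, whereas Fabp7 had 46.8% for Ct-MetS and Fabp4 had 31.7% for MetS-MetS. The difference between these values was not tested. Fabp5 did not pass in any comparison. The postnatal difference was -0.10 ± 0.35 (edgeR adjusted p = 0.904), with a 95% interval from -0.80 to 0.59 on the log2 scale. A change of any size inside that interval remains possible. MetS-MetS against Ct-Ct gave -0.65 ± 0.52 (adjusted p = 0.467; -0.67 and 0.539 without MetS-MetS_110). The highest Fabp5 level over the lowest of the 23 pups was 9.03-fold, against 4.05-fold to 6.53-fold for the other 4 members.

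**Figure D2:**
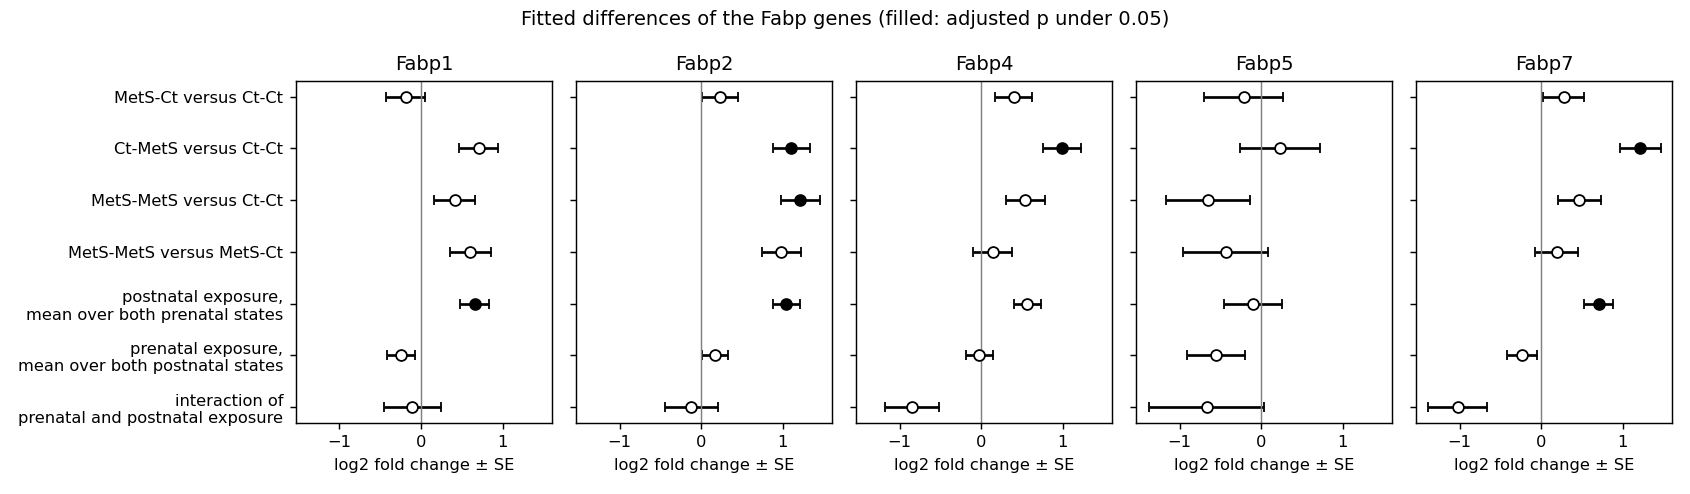
Fitted log2 fold change (x axis, linear) with its SE for each Fabp gene in 7 comparisons (rows); filled points passed an adjusted p of 0.05 in edgeR. Fabp2 is filled in 3 rows, Fabp7 in 2, and Fabp1 and Fabp4 in 1 each, and all of the filled points are higher with exposure after birth.

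Comparisons between groups were then read for the family as a whole. In Ct-MetS against Ct-Ct, 3 of 5 members were higher (Fabp2, Fabp4 and Fabp7), where 0.954% of all genes were called and 0.588% called higher. That share was 0.0831% without Ct-MetS_169 and 1.70% without Ct-Ct_33, and fell by over 1.5 times also without Ct-Ct_139, Ct-Ct_129, Ct-Ct_10, Ct-Ct_4 or Ct-MetS_63. In MetS-MetS against Ct-Ct, 1 of 5 was higher (Fabp2), where 5.78% of all genes were called and 3.06% called higher. Without MetS-MetS_110 the shares were 2.26% and 1.46%. The share called was 1.52% without Ct-Ct_129 and 9.36% without Ct-Ct_33, and fell by over 1.5 times also without MetS-MetS_154, MetS-MetS_157, Ct-Ct_4 or Ct-Ct_139. Both comparisons use the same Ct-Ct pups. Fabp2 was thus called in both, and Fabp4 and Fabp7 in the pups exposed after birth alone. MetS-MetS and Ct-Ct differ in both exposures. Among pups exposed before birth, MetS-MetS against MetS-Ct did not call Fabp2 (edgeR adjusted p = 0.0611). Whether the postnatal difference depended on prenatal exposure was tested by the interaction. None of the members was called in it (0% of all genes, and 0 members with DESeq2 or limma-voom), and 5.44% of all genes had an unadjusted p under 0.05. Fabp7 (-1.02 ± 0.37, adjusted p = 0.892) and Fabp4 (-0.85 ± 0.33, adjusted p = 0.892) had unadjusted p of 0.0101 and 0.0180, and their differences were smaller in pups also exposed before birth. Without MetS-MetS_110 those terms were -0.97 and -0.98. For Fabp2 the interaction was -0.12 ± 0.33 (adjusted p = 0.969), with a 95% interval from -0.76 to 0.52.

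Exposure before birth alone did not call any member. In MetS-Ct against Ct-Ct edgeR called 0 of 5 (0% of all genes), and DESeq2 and limma-voom called none. None of the members had an unadjusted p under 0.05, where 5.9% of all genes did. Fabp4 had the largest difference there (0.40 ± 0.23, adjusted p = 0.835). Averaged over both postnatal states, prenatal exposure called 0.00691% of all genes and none of the members (0 with DESeq2 or limma-voom). An unadjusted p under 0.05 was found for 0 members and for 16.3% of all genes. The 95% intervals of this mean ran from -0.58 to 0.097 for Fabp1 and from -0.15 to 0.49 for Fabp2. MetS-MetS against Ct-MetS called none (0% of all genes, 0 with DESeq2 or limma-voom). Fabp7 alone had an unadjusted p under 0.05 there, as did 15.6% of all genes. Among pups exposed before birth, the foster dam comparison MetS-MetS against MetS-Ct called 0.415% of all genes (0.0693% without MetS-MetS_110) and none of the members in edgeR, 0 in limma-voom and 1, Fabp2, in DESeq2. Fabp2 was 1.98-fold higher there (0.99 ± 0.24, edgeR adjusted p = 0.0611, DESeq2 0.00836), with all 5 MetS-MetS pups above all 6 MetS-Ct pups. Without MetS-MetS_110 it was 1.03 (adjusted p = 0.155), and it passed in edgeR without MetS-Ct_120 (0.0449) or Ct-Ct_33 (0.0436). In MetS-Ct against Ct-MetS, where 0.076% of all genes were called, edgeR and limma-voom called no member. An unadjusted p under 0.05 was found for 4 of 5 members and for 12.6% of all genes. DESeq2 called Fabp1 (-0.90), Fabp2 (-0.87) and Fabp7 (-0.94) lower in MetS-Ct. The 0.076% is the share in edgeR, and the share of all genes called by DESeq2 there is not given here. With Ct-MetS_50 left out, edgeR called Fabp1 (-1.05, adjusted p = 0.0317), where 0.443% of all genes were called.

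**Figure D3:**
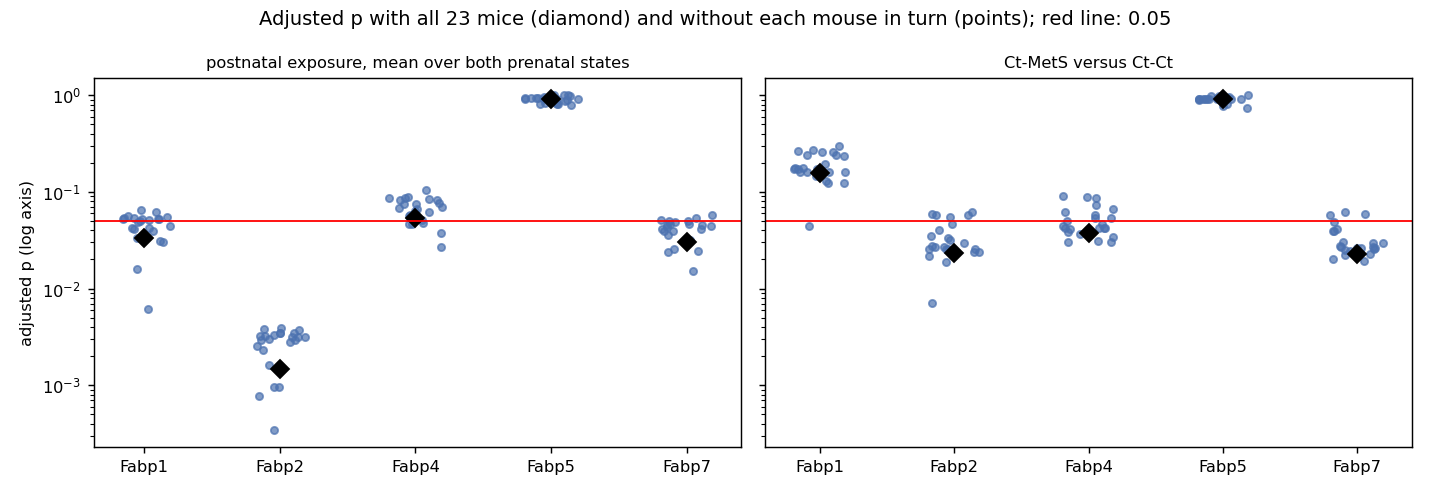
Adjusted p of each Fabp gene (y axis, log scale) for postnatal exposure (left) and Ct-MetS against Ct-Ct (right), with all 23 pups (diamonds) and without each pup in turn (points); the red line is 0.05. Fabp2 stays below the line for postnatal exposure in all 23 points, and Fabp1, Fabp4 and Fabp7 have points on both sides.

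Relatives of the family were scarce in these livers. Of 11 other lipid and retinoid binding proteins listed, 10 were in the table and 2 passed the count minimum, Fabp12 among them. Fabp12 was not called with postnatal exposure by edgeR (log2 difference 0.36 ± 0.34, SE, adjusted p = 0.582). Fabp12 averaged 1.39 ± 0.700 CPM (SD) for Ct-MetS, 0.814 ± 0.445 for Ct-Ct, 0.593 ± 0.337 for MetS-Ct and 0.571 ± 0.178 for MetS-MetS. Fabp9 and Pmp2 had 0 counts in all libraries, which allows at most 0.00492 CPM over the whole series and 0.0869 to 0.178 CPM in a single library, for counting error only. Fabp6, the ileal form, had 2 counts in all and Crabp1 had 1. Fabp3, the muscle and heart form, had 28 counts, 20 of them in MetS-MetS_110. That library also held 30 of the 43 counts of Crabp2 and 46 counts of Rbp2, against at most 6 in any other, and Rbp7 had 16 counts over all libraries. Fabp2, Fabp4, Fabp5, Fabp9, Fabp12 and Pmp2 lie on chromosome 3, Fabp1 on chromosome 6 and Fabp7 on chromosome 10. The pseudogene Fabp5l2 had at most 1 count per library.

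Genes that work with the carriers were taken from a list of uptake and activation proteins. Of its 17 tested genes, 3 rose with postnatal exposure and 1 fell. Of all genes 4.22% were called in either direction and 2.27% higher. Leaving out 1 pup gave 2 to 3 higher and 0 to 1 lower. The median of the list was 0.082 against -0.0075 for all genes tested. Slc27a2, a fatty acid transporter and acyl-CoA synthetase, rose by 0.59 ± 0.13 (SE, edgeR adjusted p = 0.0159). Ct-Ct pups had 1017 ± 218 CPM of it, MetS-Ct pups 1283 ± 290, Ct-MetS pups 1540 ± 432 and MetS-MetS pups 1913 ± 279 (SD; 1989 ± 256 without MetS-MetS_110). Acsl1, which activates long-chain fatty acids, rose by 0.51 ± 0.12 (adjusted p = 0.0175). Cd36, a surface fatty acid translocase, rose by 0.59 ± 0.15 (adjusted p = 0.0272). Its level was 33.04 ± 8.79 CPM for Ct-Ct, 44.6 ± 11.3 for MetS-Ct, 56.9 ± 13.6 for Ct-MetS and 58.6 ± 17.3 for MetS-MetS (SD; 59.6 ± 19.9 without MetS-MetS_110). The Cd36 call was lost without Ct-Ct_129, MetS-MetS_157 or Ct-MetS_169 (adjusted p from 0.0505 to 0.0559). Scp2, a sterol and lipid carrier of peroxisomes, had a log2 fold change of -0.31 ± 0.085 (SE, adjusted p = 0.0397) and was the gene that fell. Its call was lost without 13 of the 23 pups in turn, MetS-MetS_110 among them (adjusted p = 0.0691).

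PPAR-alpha target genes, mostly enzymes of mitochondrial and peroxisomal fatty acid oxidation, were described from a list of 33. With postnatal exposure 11 of 32 tested genes rose and none fell, where 2.27% of all genes were called higher. The median was 0.53, and leaving out 1 pup gave 9 to 16 higher. Aldh3a2, a fatty aldehyde dehydrogenase, rose by 0.77 ± 0.14 (SE, edgeR adjusted p = 0.0032). Vnn1, a pantetheinase, rose by 1.88 ± 0.34 (adjusted p = 0.00596), with 11.4 ± 5.28 CPM among Ct-Ct pups, 13.9 ± 8.13 among MetS-Ct, 40.3 ± 26.1 among Ct-MetS and 52.8 ± 19.7 among MetS-MetS pups (SD; 55.3 ± 21.9 without MetS-MetS_110). Hadha and Hadhb, the 2 subunits of the mitochondrial trifunctional protein, rose by 0.33 (adjusted p = 0.00899) and 0.48 (adjusted p = 0.0135). In MetS-MetS against Ct-Ct 21 of 32 rose, with a median of 0.91, where 3.06% of all genes were called higher. Without MetS-MetS_110, 17 rose with a median of 0.97, and 11 rose without Ct-Ct_129 and 12 without Ct-Ct_139. In Ct-MetS against Ct-Ct edgeR called none (17 at an unadjusted p under 0.05, against 13.9% of all genes). The median there was 0.51, and 4 rose without Ct-MetS_50. Exposure before birth alone, MetS-Ct against Ct-Ct, also called none (9 at an unadjusted p under 0.05, against 5.9% of all genes). In it 30 of 32 genes lay above 0, with a median of 0.40. The prenatal mean over both postnatal states called none (23 at an unadjusted p under 0.05, against 16.3% of all genes). For this mean 28 of 32 lay above 0, with a median of 0.38. Fabp1, Fabp4 and Fabp7 had the opposite order of these 2 comparisons, with 0.41, 0.54 and 0.47 in MetS-MetS and 0.71, 0.99 and 1.22 in Ct-MetS. Fabp2 differed from them, with 1.22 and 1.11. The 2 comparisons share the Ct-Ct pups, and none of these differences between them was called for the members.

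Of 17 tested transcription factors known to act on Fabp genes, edgeR called none with postnatal exposure. An unadjusted p under 0.05 was found for 4 of these factors, and for 21.2% of all genes. Among those with the smallest p were Foxa2 (-0.46, adjusted p = 0.0568), Foxa3 (0.31, 0.0964) and Ppara (0.22, 0.145), all of them factors of hepatocyte genes. Ppara averaged 275 ± 23.2 CPM (SD) for MetS-MetS (281 ± 21.98 without MetS-MetS_110), 252 ± 52.3 for Ct-MetS, 238 ± 29.6 for MetS-Ct and 213 ± 32.05 for Ct-Ct. Clock genes were listed because Fabp7 and other carriers cycle over the day in mouse liver, and none of 18 was called (1 at an unadjusted p under 0.05). Dbp, a clock output factor that varies widely over the day, had the smallest p (1.23 ± 0.58, adjusted p = 0.227), with 25.9 ± 12.1 CPM for Ct-Ct, 44.9 ± 35.1 for MetS-Ct, 45.2 ± 33.3 for Ct-MetS and 142 ± 105 for MetS-MetS (SD; 128 ± 115 without MetS-MetS_110). Bhlhe41 gave 0.62 (adjusted p = 0.533) and Hlf 0.17 (adjusted p = 0.580). The sources used here do not state the hour of killing.

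**Figure D4:**
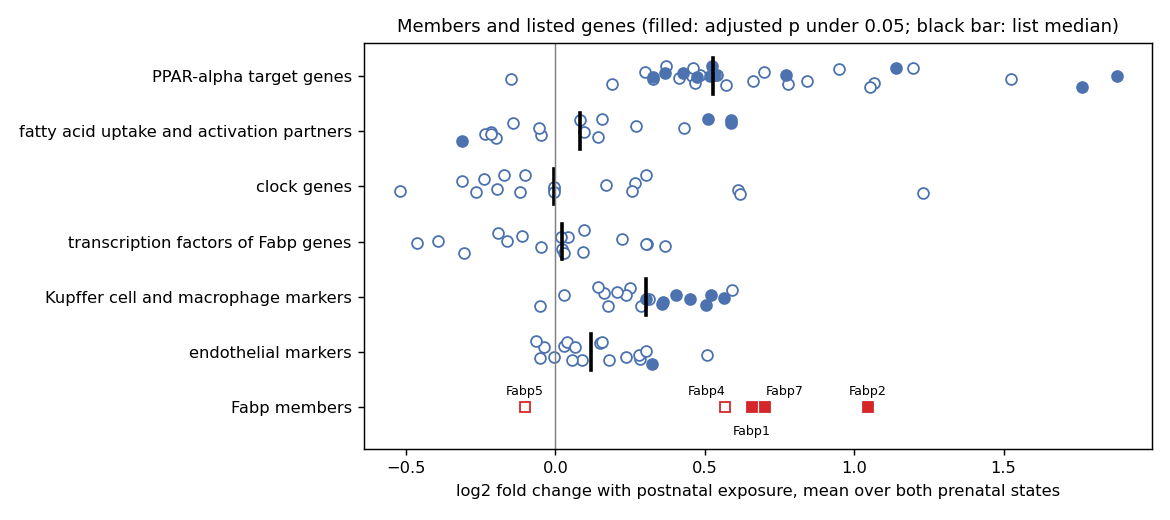
Log2 fold change with postnatal exposure (x axis, linear) of every tested gene of 6 lists (circles, with the list median as a black bar) and of the 5 Fabp genes (red squares, labelled); filled symbols passed an adjusted p of 0.05 in edgeR. Fabp2 at 1.05 lies beyond the PPAR-alpha list median of 0.53, Fabp1, Fabp4 and Fabp7 lie between 0.57 and 0.70, and Fabp5 lies at -0.10.

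Genes whose level followed each member over the 23 pups were ranked among 11120 genes by Pearson r of log2 CPM. These values describe the same libraries and share their scaling, and r after group means were removed is given second. Fabp1 was followed most closely by Paqr9 (0.89 and 0.85), Scpep1 (0.88 and 0.88) and Snrnp25 (0.88 and 0.80). Fabp2 was followed by Rtn4 (0.89 and 0.76), Ifi27l2a (0.89 and 0.82) and Arl6ip1 (0.87 and 0.72), all 3 of which rose with postnatal exposure, by 0.46, 0.72 and 0.35. Fabp4 was followed by Ccdc80 (0.85 and 0.70), Sparc (0.84 and 0.69), both extracellular matrix proteins, and Parvb (0.79 and 0.63). Fabp7 was followed by Tifab (0.84 and 0.67), Psd4 (0.82 and 0.70) and Ptpn6 (0.81 and 0.69), the last a phosphatase of blood cells. Without the 2 pups farthest from the median, the r of Fabp7 with Psd4 was 0.63.

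Fabp5 was followed by genes that were not called with postnatal exposure. Its closest were the water channel gene Aqp8 (r = 0.92, and 0.92 after group means were removed), Hmgcs1, which makes the precursor of cholesterol (0.89 and 0.88), and Cyb5r3 (0.86 and 0.91). Their adjusted p in edgeR were 0.700, 0.972 and 0.673. Among relatives, Fabp12 followed Fabp5 with r = 0.84, both before and after group means were removed, although Fabp12 had only 4 to 64 counts per library. Fabp1 and Fabp5 had r = 0.71, and 0.83 after group means were removed. Fabp1 with Fabp2 gave 0.67 and 0.50, and Fabp2 with Fabp7 gave 0.55 and 0.18. Fabp4 ran differently from Fabp1, with r = 0.056 over all pups and -0.48 inside the groups.

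**Figure D5:**
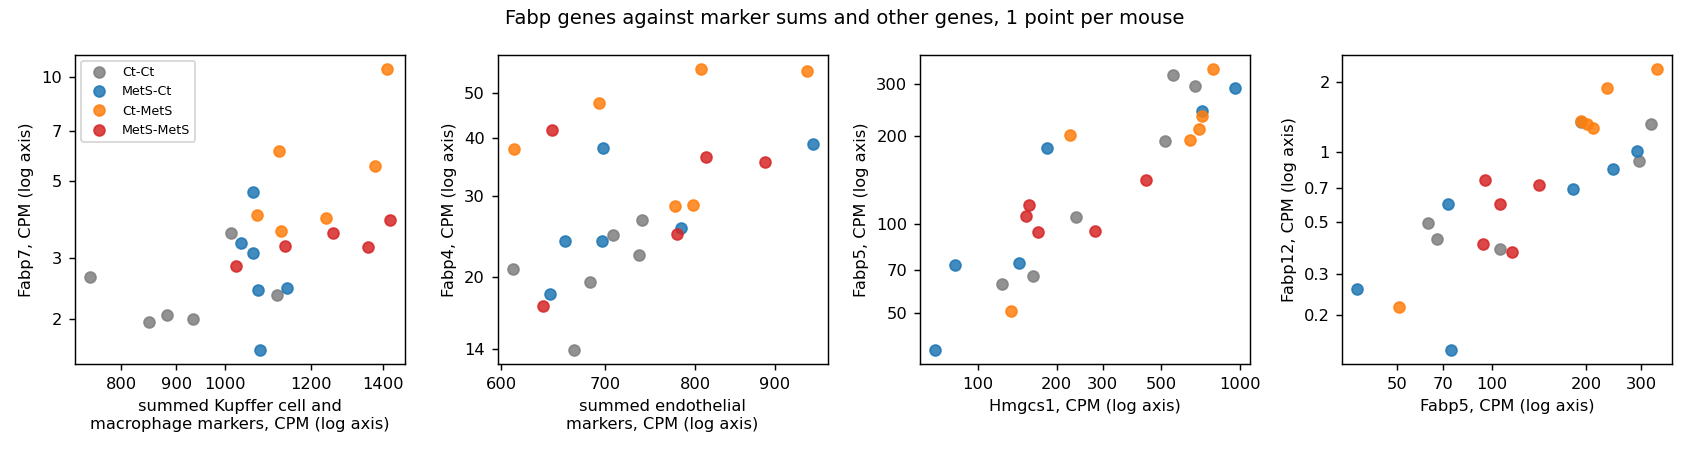
Levels in CPM on log axes, 1 point per pup coloured by group: Fabp7 against the summed macrophage genes, Fabp4 against the summed endothelial genes, Fabp5 against Hmgcs1, and Fabp12 against Fabp5. Pups with more Hmgcs1 had more Fabp5 (r = 0.89 over the 23 pups), while Ct-MetS_169 stands at 10.6 CPM of Fabp7.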

How the data were processed

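Liver RNA of 23 pups was measured, 1 library each. The authors deposited whole-number counts per gene in a single table. FastQC, STAR, HTSeq and DESeq2 were used, per the submitters' processing notes, without versions, and a directional library kit, per the labels' protocols. The sources used here do not give the build, annotation or use of strand. The table is named as normalised, but it was read as raw counts: every library holds each whole number from 1 to 100, and DESeq2 size factors on it range from 0.623 to 1.43. Totals of 16876460 to 34527932 counts put at least 42 counts behind each member's value.

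The 14466 genes whose mean reached 10 counts were tested with edgeR 4.0.16 in R 4.3.3 (quasi-likelihood, TMM, robust, 1 mean per group over all 23 libraries), and a Benjamini-Hochberg adjusted p below 0.05 made a call. Standard errors were derived from the fold change and F statistic, and 95% intervals are 1.96 SEs. The procedure was tested on simulated data. Alternatives were DESeq2 1.42.0, limma-voom (limma 3.58.1), other scaling, no count filter, only the groups compared, and leaving out each pup. Correlations used log2(CPM + 0.1), over genes averaging 50 counts or more. Named genes were the 5 members, their measured relatives, the 4 smallest p for postnatal exposure in each of 4 lists, and the 3 genes most like each member. A few genes taken by this rule are left unreported. Genes named from marker lists, and Apoa4, were chosen after their values were seen, as was the striated muscle list. The members and all lists were chosen with earlier results of these data known, so no member count or list is independent evidence. Promoters came from RefSeq (GRCm38.p6) and exon lengths from GENCODE M21, matched by gene.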

Additional observations from a re-analysis of the deposited data

Results flagged for a closer look

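Of 28 sets of values (a gene in a group), 4 held a pup far from its group by Dixon's test. The test's chance rate of about 1 in 20 is for continuous values, and does not hold for genes mostly at 0 counts. Any count is flagged where every other pup of a group is at 0, as in both sets of Fabp3 below. Fabp2 was at 56.4 CPM in Ct-Ct_33, above the 5 other Ct-Ct pups, which were at or below 33.7 CPM. Fabp7 was at 10.6 CPM in Ct-MetS_169, where the other 5 pups of the group were at or below 6.11 CPM. Fabp3 was at 1.24 CPM in MetS-MetS_110, the library with striated muscle RNA, and at 0 in the other 4 of the group. Fabp3 was at 0.0383 CPM in Ct-Ct_139, which is a single count against 0 in the other 5.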

How the results depend on the processing

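The calls of Fabp1, Fabp4 and Fabp7 lay close to the threshold, and counting error is largest for Fabp7, with 42 to 325 counts per library. Members called in Ct-MetS against Ct-Ct were 3 in the main analysis, 3 with DESeq2 and limma-voom, 2 without a count filter and 0 when only those groups were fitted (adjusted p of 0.0608 for Fabp2, 0.0558 for Fabp4 and 0.0566 for Fabp7). Leaving out 1 pup gave 0 to 3 there, with 0 without Ct-Ct_10, Ct-Ct_129 or Ct-MetS_169. For postnatal exposure DESeq2 called 4 and no filter left 2 (Fabp1 at an adjusted p of 0.0687), and leaving out 1 pup gave 1 to 4. DESeq2 called 1 member in MetS-MetS against MetS-Ct and 3 in MetS-Ct against Ct-MetS, where leaving out 1 pup gave 0 to 1 in each. In MetS-MetS against Ct-Ct the count was 1 under every alternative run. The causes were not tested, apart from the fewer pups or added genes by construction.

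Some differences near 0 changed sign. Fabp2 in MetS-MetS against Ct-MetS was 0.11 and -0.025 on library totals without scaling. With limma-voom the Fabp5 postnatal difference was 0.13 and the Fabp1 interaction 0.028. Leaving out 1 pup moved Fabp5 in MetS-Ct against Ct-Ct between -0.52 and 0.053, Fabp5 with postnatal exposure between -0.20 and 0.048, Fabp4 with prenatal exposure between -0.089 and 0.051, the Fabp1 interaction between -0.26 and 0.067 and the Fabp2 interaction between -0.32 and 0.013. Library totals shifted the median of all genes by -0.10 in MetS-MetS against Ct-Ct and by -0.14 against Ct-MetS, and turned the split of calls against Ct-Ct from 443 higher and 393 lower to 307 and 970, and in Ct-MetS from 85 and 53 to 128 and 37. Over all genes, higher and lower calls with postnatal exposure were 329 and 282 in edgeR, 555 and 483 with DESeq2 and 188 and 179 without a count filter. In Ct-MetS against Ct-Ct they were 250 and 175 with DESeq2 and 29 and 18 with only those groups, and in MetS-MetS against Ct-Ct 653 and 693 with DESeq2, 313 and 188 with limma-voom and 232 and 225 without a filter. In MetS-MetS against MetS-Ct they were 37 and 23 in edgeR, 67 and 69 with DESeq2 and 8 and 2 with limma-voom. No paired analysis was possible because the groups share no animal numbers.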
